A study of Rattus norvegicus with 21 samples.

Results

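CpG-dense methylated tiles are stretches of 250 bp that carry many CpG sites and are nonetheless methylated in the dorsal striatum of the rat. They were chosen on chromosomes 1 to 20, in build rn5, among tiles with at least 2 listed CpGs in each of 21 libraries. A tile was taken when 8 or more distinct CpGs were listed in it in any library and its mean methylation level over the 6 unlesioned libraries was 80% or above. This gave 2637 tiles of 140054 (1.88%), and 7.43% of the 35509 tiles with 8 or more CpGs. The level is the percent of reads over the tile's CpGs that still show C after bisulfite treatment, with the CpGs of a tile summed.

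All samples came from wild-type Sprague Dawley rats of 120 days. In 7 libraries the rats had a lesion of the left medial forebrain bundle made with 6-OHDA, a toxin of catecholamine neurons, recovered for 3 weeks and then had L-DOPA, the precursor of dopamine, at 6 mg/kg daily for 7 days before tissue was taken 3 h after the last injection. In 8 libraries the lesioned rats had saline, and 6 libraries are labelled unlesioned and treated with saline. The lesion removes dopamine fibres on one side as a model of parkinsonism, and repeated L-DOPA gives abnormal movements in such rats, which the study relates to DNA methylation. Whether the unlesioned tissue came from separate animals, sham-operated animals or the other hemisphere is not stated in the labels. They do not name the animal behind each sample either, so a p-value here measures only how these samples spread, which may be technical. Each level is an average over all cells of the tissue, so a change in each cell and a change in the mix of cells cannot be told apart.

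In mammals most CpGs outside dense stretches are methylated, and over evolution methylated CpGs are lost because methylated cytosine mutates readily to thymine. Dense stretches, called CpG islands, mostly lie at gene starts and are kept unmethylated. A methylated promoter island is usually silent, and this state is known at germline genes in body tissues, on the inactive X chromosome, at imprinted genes and at some repeats. Bisulfite does not separate methylated from hydroxymethylated cytosine, and the second is abundant in neurons.

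The tiles named first are those at gene starts, because a methylated start is the best known form of a methylated CpG-dense stretch. No annotation of rn5 was used here, so promoter sequences of RefSeq (build GRCr8; from 250 bases before to 50 bases after the start) were placed on the listed CpGs by the spacing of their CpGs. Of 3046 promoters with a single place, 2999 (98.5%) fell on the chromosome RefSeq gives, which was not used in the matching. The other 47 were then left out. Of 2551 genes whose promoter fell on a tile with 8 or more CpGs, 19 fell on a CpG-dense methylated tile. They were 6 of 2280 protein-coding genes (0.263%) and 13 of 271 lncRNA genes (4.80%). The 6 protein-coding promoters are printed below, 5′ to 3′ in the direction of the gene, with the CpGs that matched a listed CpG in capitals.
Spaca1: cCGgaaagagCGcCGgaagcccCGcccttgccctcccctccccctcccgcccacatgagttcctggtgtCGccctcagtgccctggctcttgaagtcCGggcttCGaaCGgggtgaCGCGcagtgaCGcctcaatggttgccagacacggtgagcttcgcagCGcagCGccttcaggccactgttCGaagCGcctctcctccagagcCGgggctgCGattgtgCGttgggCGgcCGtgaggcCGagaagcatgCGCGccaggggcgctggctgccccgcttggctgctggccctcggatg
Redic1: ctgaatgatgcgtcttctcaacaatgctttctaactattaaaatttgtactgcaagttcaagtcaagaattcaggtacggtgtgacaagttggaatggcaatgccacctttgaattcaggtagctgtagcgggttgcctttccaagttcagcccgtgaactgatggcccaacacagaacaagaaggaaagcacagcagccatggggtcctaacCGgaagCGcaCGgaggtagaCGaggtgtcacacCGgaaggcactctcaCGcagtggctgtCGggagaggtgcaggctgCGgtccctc
Ceacam16: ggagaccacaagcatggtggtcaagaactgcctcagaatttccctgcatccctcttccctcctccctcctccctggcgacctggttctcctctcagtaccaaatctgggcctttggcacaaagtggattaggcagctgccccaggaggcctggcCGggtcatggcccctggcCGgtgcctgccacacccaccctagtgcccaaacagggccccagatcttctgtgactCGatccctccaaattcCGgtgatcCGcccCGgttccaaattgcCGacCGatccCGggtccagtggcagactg
Gcshl1: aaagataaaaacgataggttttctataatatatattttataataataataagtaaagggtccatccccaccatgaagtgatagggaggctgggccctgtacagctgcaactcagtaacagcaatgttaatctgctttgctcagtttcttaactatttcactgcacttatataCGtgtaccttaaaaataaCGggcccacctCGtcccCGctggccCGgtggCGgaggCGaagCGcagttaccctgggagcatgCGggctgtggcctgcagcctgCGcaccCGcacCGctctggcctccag
Rpl39l1: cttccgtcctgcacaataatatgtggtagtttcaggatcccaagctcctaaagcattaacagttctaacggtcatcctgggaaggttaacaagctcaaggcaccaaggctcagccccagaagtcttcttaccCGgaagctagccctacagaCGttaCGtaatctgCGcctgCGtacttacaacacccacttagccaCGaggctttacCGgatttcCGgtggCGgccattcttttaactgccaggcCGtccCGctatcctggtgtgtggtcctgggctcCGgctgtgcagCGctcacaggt
Igbp1b: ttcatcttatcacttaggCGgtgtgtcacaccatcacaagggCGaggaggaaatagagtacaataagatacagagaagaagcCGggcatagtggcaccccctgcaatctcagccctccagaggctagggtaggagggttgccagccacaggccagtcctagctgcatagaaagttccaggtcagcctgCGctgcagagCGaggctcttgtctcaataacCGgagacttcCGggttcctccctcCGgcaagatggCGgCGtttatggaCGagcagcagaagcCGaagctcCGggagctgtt

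In Spaca1, which encodes a membrane protein of the sperm acrosome, 23 of the promoter's 29 CpGs matched. The tile at chr5:54010001-54010250 had a lowest, median and highest level of 69.0%, 90.4% and 96.2% in lesioned L-DOPA, 66.1%, 91.9% and 95.7% in lesioned saline and 80.5%, 91.5% and 96.4% in unlesioned saline libraries. The groups overlapped. Under 80% were 2 L-DOPA libraries, 1 lesioned saline library and 0 unlesioned ones. The choice used the unlesioned levels with this same limit, so these counts do not compare the groups. The lowest library of each was L-DOPA replicate 3, lesioned saline replicate 2 and unlesioned replicate 1. Inside the promoter the CpGs were uneven, from 23.1% to 93.7% with a median of 88.9%, pooled over libraries. The next tile, which holds the other part of the promoter, averaged 76.8% in lesioned L-DOPA, 77.6% in lesioned saline and 79.5% in unlesioned saline libraries and was therefore not counted as methylated.

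Redic1, a gene of meiotic recombination in the germline, had 8 matched CpGs, all between 90.2% and 96.2%. Its tile at chr7:132024251-132024500 averaged 87.4% ± 3.69 in lesioned L-DOPA (SD, n = 7), 87.0% ± 2.61 in lesioned saline (n = 8) and 88.2% ± 1.67 in unlesioned saline (n = 6). Ceacam16, which encodes a protein of the tectorial membrane of the inner ear, had 9 matched CpGs, of which 7 were at 80% or above and 1 read 0%. Its tile at chr1:82049001-82049250 averaged 90.3% ± 0.822 in lesioned L-DOPA, 89.3% ± 2.62 in lesioned saline and 88.9% ± 2.64 in unlesioned saline. These 3 genes are known from sperm, meiosis and the inner ear, and their RNA was not analysed here.

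The other 3 genes carry names of copies or relatives of widely used genes. Gcshl1 had 12 matched CpGs, all at 84.8% to 97.2%, over a pair of neighbouring tiles. The first, chr1:289892751-289893000, averaged 94.2% ± 1.19 in lesioned L-DOPA, 93.9% ± 1.99 in lesioned saline and 93.1% ± 2.61 in unlesioned saline, and the second, chr1:289893001-289893250, 92.0% ± 2.46, 89.8% ± 3.22 and 92.2% ± 2.78 in the same order. Rpl39l1 had 13 matched CpGs, of which 12 were at 80% or above and the lowest was at 66.4%. Its tile at chr10:4354251-4354500 averaged 87.7% ± 2.15 in lesioned L-DOPA, 88.1% ± 0.941 in lesioned saline and 87.5% ± 2.16 in unlesioned saline. Igbp1b had 13 matched CpGs, of which 9 were at 80% or above and the lowest was at 25.9%. Its tile at chr4:236961001-236961250 averaged 83.0% ± 2.33 in lesioned L-DOPA, 84.6% ± 3.22 in lesioned saline and 85.2% ± 2.44 in unlesioned saline, and the other tile of the promoter averaged 75.4%, 73.1% and 77.6% in the same order. Reads of near-identical copies may be split or misplaced in such genes, and this was not tested. At all 7 tiles the ranges of the groups overlapped.

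Promoters were rare in methylated tiles at every CpG number. A placed promoter was found in 20 CpG-dense methylated tiles (0.758%) and in 10.8% of the 30242 tiles of 8 or more CpGs with a level under 20%. Among tiles of 8 to 9 CpGs the shares were 0.803% and 6.42%, among those of 10 to 14 CpGs 0.564% and 9.48%, and among those of 15 or more 1.52% and 13.1%. These shares rest on the 2999 of 33469 sequences with a single place on the RefSeq chromosome, and not on all promoters. Only 15918 of the sequences had the 8 CpGs needed. Methylated tiles listed fewer of their CpGs in each library (90.8% against 98.2% in unmethylated dense tiles), which can lower the share that is placed, and its part in the difference was not tested.

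Methylation of dense tiles split into a large unmethylated and a small methylated class. Of the dense tiles, 85.2% were under 20%, 7.41% between 20% and 80%, and 7.43% at 80% or above. The median level of the methylated ones was 92.1% and the highest 99.1%. Among them, 1662 (63.0%) were at 90% or above and 693 (26.3%) at 95% or above. The counts per level had their minimum in the middle of the range and rose again above 80%, so the threshold of 80% lies on the flank of the methylated class: 405 tiles lay between 80% and 85%, and 279 dense tiles just below, between 75% and 80%.

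**Figure D1:**
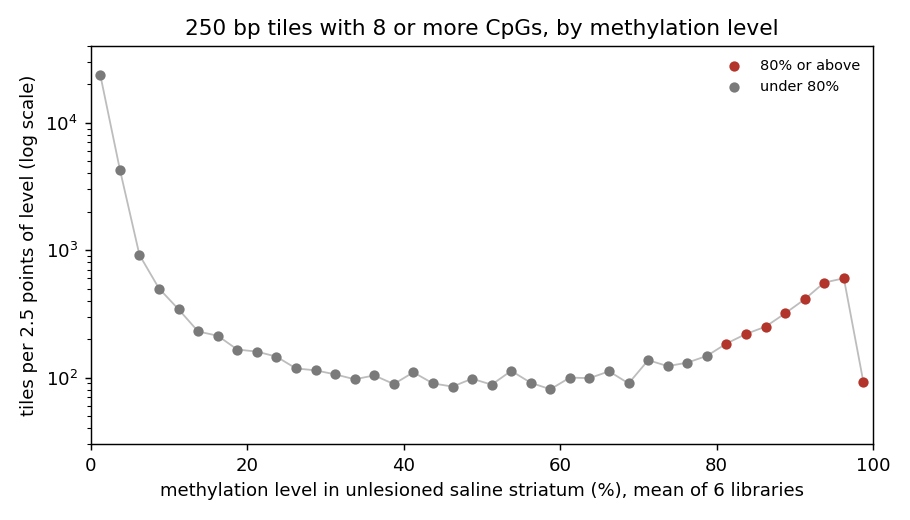
Number of tiles with 8 or more CpGs per 2.5 points of methylation level in unlesioned saline striatum (mean of 6 libraries, horizontal axis, %), on a log axis; red points are the 2637 tiles at 80% or above and grey points the tiles below. Most dense tiles lie near 0%, and a smaller class rises towards the right with a median of 92.1%.

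The values at the edge of the rule were continuous. Just inside were chr7:14333251-14333500 at 80.01%, chr18:79171001-79171250 at 80.03% and chr19:52856751-52857000 at 80.04%. Just outside were chr2:217347001-217347250 at 79.98%, chr4:225001751-225002000 at 79.98% and chr3:12706251-12706500 at 79.95%. In chr18:79171001-79171250, for example, the libraries ran from 65.6% to 85.5% in lesioned L-DOPA, from 68.2% to 82.0% in lesioned saline and from 72.9% to 86.5% in unlesioned saline, much wider than the step across the threshold. On the side of CpG number, 1054 tiles had exactly 8 CpGs, and 1719 methylated tiles with 7 CpGs were left out.

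The share of methylated tiles fell with CpG number. It was 22.4% of 4710 tiles with 8 CpGs, 15.6% of those with 9, 10.6% of those with 10 to 11 and 4.57% of those with 12 to 14. Of tiles with 15 to 19 CpGs 1.47% were methylated, and of 8175 tiles with 20 to 33 CpGs 0.330%, which were 27 tiles. Among the methylated tiles the median level was 91.9% at 8 CpGs and 91.5% at 20 to 33. The choice kept only tiles at or above a fixed level, which limits how far apart these medians can lie. They therefore do not show whether the level depends on CpG number.

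Methylated tiles also spaced their CpGs differently from unmethylated ones with the same number of CpGs. Weighted to the same CpG numbers, the median gap between neighbouring CpGs was 13.4 bp in methylated and 11.3 bp in unmethylated dense tiles. Adjacent CpGs with no base between them were found in 24.7% of methylated and 50.6% of unmethylated tiles, with 0.323 and 0.759 such pairs per tile. The listed CpGs spanned 166 bp in methylated and 152 bp in unmethylated tiles. The same order held at 8, 10, 12 and 15 CpGs taken singly: at 12 CpGs, 33.3% of 126 methylated and 64.1% of 2009 unmethylated tiles had an adjacent pair. These are descriptions of positions listed in the libraries, and CpGs without reads are not in them.

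The 3 tiles with the most CpGs were nearly fully methylated in every library. The tile at chr1:154724251-154724500 with 33 CpGs had a lowest, median and highest level of 97.6%, 97.9% and 98.5% in lesioned L-DOPA, 97.4%, 98.2% and 98.8% in lesioned saline and 97.6%, 97.9% and 98.6% in unlesioned saline, with at least 1385 reads per library. Its neighbour at chr1:154724001-154724250 with 32 CpGs averaged 94.5% ± 0.780 in lesioned L-DOPA (SD, n = 7), 94.7% ± 0.700 in lesioned saline (n = 8) and 94.4% ± 0.442 in unlesioned saline (n = 6). At chr1:102067001-102067250 with 30 CpGs the averages were 96.8% ± 0.532 in lesioned L-DOPA, 96.4% ± 0.532 in lesioned saline and 96.6% ± 0.651 in unlesioned saline. The spread within a group was below 1 point in all 3 tiles, and the ranges of the groups overlapped.

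Most places directly beside methylated dense tiles were not measured. Of the 5274 places directly beside them 1241 (23.5%) held a tile measured in all 21 libraries, against 67.9% of the 60484 places beside unmethylated dense tiles. Of these measured neighbours, 335 had 8 or more CpGs and 292 of the 335 (87.2%) were methylated dense tiles themselves, while 99.4% of the 30145 dense neighbours of unmethylated dense tiles were unmethylated. With unmeasured places counted as empty, 2367 had no directly adjacent member, and 270 (10.2%) lay in 124 runs of 2 or more, whereas 76.9% of the unmethylated dense tiles lay in runs. The longest run was 1250 bp, against 3000 bp for unmethylated tiles. This run, chr5:175157251-175158500, had 5 tiles and 55 CpGs and averaged 94.5% ± 1.32 in lesioned L-DOPA, 94.2% ± 1.13 in lesioned saline and 94.8% ± 1.01 in unlesioned saline. The run at chr1:154723751-154724750 held 107 CpGs in 1000 bp and averaged 95.2% ± 0.656 in lesioned L-DOPA, 95.2% ± 1.21 in lesioned saline and 94.8% ± 0.644 in unlesioned saline. At chr2:48848501-48849500 a run of 4 tiles with 40 CpGs averaged 90.1% ± 4.43 in lesioned L-DOPA, 91.7% ± 1.77 in lesioned saline and 92.4% ± 2.52 in unlesioned saline. L-DOPA replicate 3 was at 52.9% in 1 tile of this last run, from 157 reads summed over 4 CpGs (95% Wilson interval 45.1% to 60.5%). The next L-DOPA library was at 79.8%. A read over several CpGs is counted at each and taken as independent, so such intervals can be too narrow.

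The densest cluster lay around the chromosome 1 run. Between 154694751 and 154741250, 46500 bp, 16 methylated dense tiles alternated with 11 unmethylated ones. From 154720501 to 154723250 tiles of 5 to 18 CpGs averaged 0.317% to 2.74% in lesioned L-DOPA, 0.221% to 2.82% in lesioned saline and 1.42% to 2.60% in unlesioned saline. The tile at 154723501 with 6 CpGs averaged 7.67% in lesioned L-DOPA, 6.88% in lesioned saline and 7.28% in unlesioned saline, and the tile directly beside it, with 20 CpGs, averaged 90.3%, 89.8% and 89.5% in the same order. A second unmethylated block lay from 154730751 to 154732500, and the methylated tile at 154733251 averaged 93.6% in lesioned L-DOPA, 94.9% in lesioned saline and 95.8% in unlesioned saline. Over the 16 methylated tiles the highest and lowest group mean differed by a median of 0.832 points, and over the 11 unmethylated ones by 0.295 points. The largest difference was 4.31 points, at 154695001, with 95.8% in lesioned L-DOPA, 93.3% in lesioned saline and 91.5% in unlesioned saline. A further cluster at chr6:145705501-145762250 held 10 methylated and 8 unmethylated tiles among 20 dense tiles.

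The measured tiles directly beside methylated dense tiles were mostly methylated, with the clusters included. At 250 bp the neighbouring tiles had a median of 91.3%, and 82.7% of 1241 neighbours were at 80% or above. The median was 83.4% at 1000 bp, 61.9% at 5000 bp and 52.6% at 10000 bp. Tiles of 2 or 3 CpGs at 80% or above had almost the same profile, 90.6% at 250 bp and 54.3% at 10000 bp. Around unmethylated dense tiles the median was 1.70% at 250 bp, 14.4% at 5000 bp and 21.003% at 10000 bp. These are unlesioned levels of tiles measured in all 21 libraries. Tiles listed in any library were also taken, with their level averaged over all libraries, lesioned ones included, so the samples differ too. Their median at 10000 bp was 71.0% around methylated dense tiles, 72.9% around CpG-poor methylated tiles and 55.0% around unmethylated dense tiles. At 5000 bp it was 76.0%, 74.3% and 37.3% in the same order. No methylated dense tile was directly beside an unmethylated dense tile, 3 lay within 500 bp of one and 26 (0.986%) within 1000 bp. The median distance was 33750 bp, against 58250 bp for the CpG-poor methylated tiles.

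**Figure D2:**
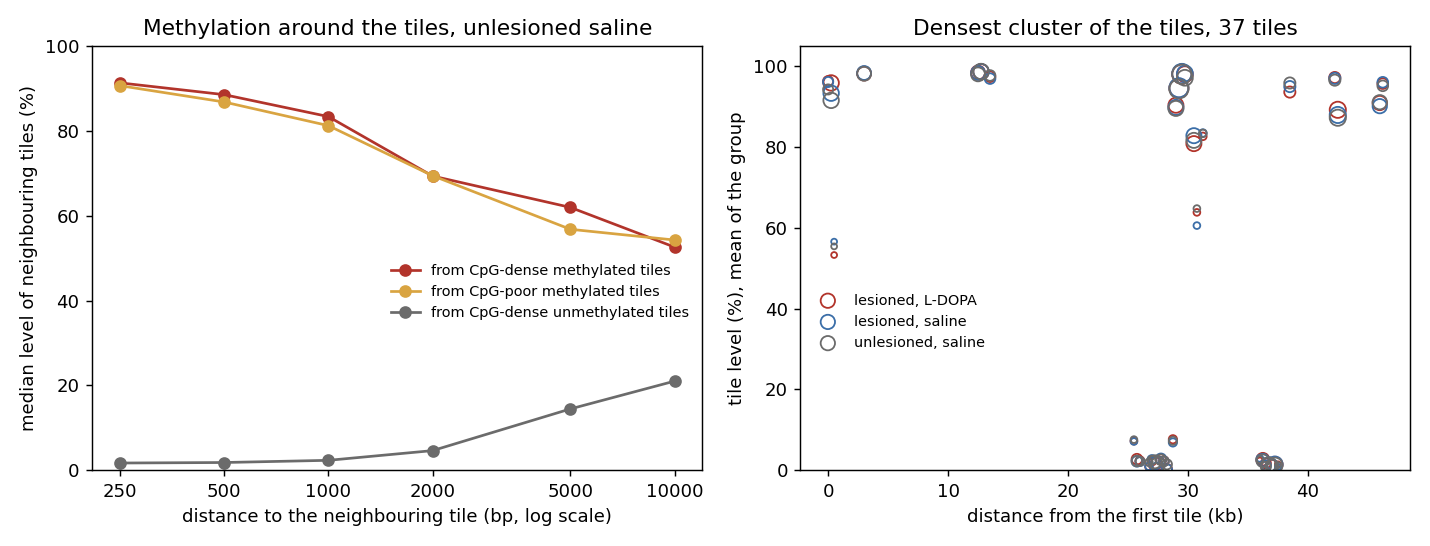
Left, median level of tiles at a given distance (log axis, bp) from CpG-dense methylated, CpG-poor methylated and CpG-dense unmethylated tiles in unlesioned saline libraries. Right, the mean level of each tile per group along the densest cluster on chromosome 1, against distance from its first tile (kb), with circle area growing with CpG number: circles of lesioned L-DOPA, lesioned saline and unlesioned saline lie close together both in the methylated tiles, at 80.8% to 98.7%, and in the unmethylated dense ones, at 0.221% to 2.82%.

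Methylated dense tiles made up different shares of the dense tiles by chromosome, from 5.82% on chromosome 8 to 11.5% on chromosome 12 and 12.2% on chromosome 20. In the final 10% of the length covered on each chromosome lay 21.2% of the methylated dense tiles, 14.6% of the unmethylated dense tiles and 16.9% of all common tiles. The excess over all common tiles was seen on 15 of 20 chromosomes. On chromosome 5, 104 of 209 methylated dense tiles (49.8%) lay there, against 28.7% of its common tiles.

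In the 3 groups the mean level over the 2637 tiles was almost the same. The lowest, median and highest library were 88.5%, 91.3% and 91.6% in lesioned L-DOPA, 90.3%, 91.1% and 91.5% in lesioned saline and 88.9%, 91.4% and 91.9% in unlesioned saline. The groups overlapped, and the low ends were 3 libraries, L-DOPA replicates 3 and 7 and unlesioned replicate 1. These libraries were at 88.5% to 88.9% and the other 18 at 90.3% to 91.9%. Means and SDs were 90.5% ± 1.32 in lesioned L-DOPA (n = 7), 91.0% ± 0.364 in lesioned saline (n = 8) and 91.1% ± 1.14 in unlesioned saline (n = 6). The CpG-poor methylated tiles were also lowest in those 3 libraries, at 87.5% to 88.1%, against 89.5% to 91.5% in the other 18.

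The same 3 libraries had their reads concentrated elsewhere. In every library the tiles had fewer reads per CpG than unmethylated dense tiles of the same CpG number, with a median ratio of 0.663. The ratio was 0.296 to 0.357 in those 3 libraries and at least 0.453 in the other 18. Together they held the lowest of the 21 values at 1211 tiles (45.9%), with 539 in L-DOPA replicate 7, 360 in L-DOPA replicate 3 and 312 in unlesioned replicate 1. Unlesioned replicate 4, whose coverage ratio was 0.697 and whose mean level was 90.9%, held the lowest value at 335 tiles (12.7%), more than unlesioned replicate 1. Median reads per CpG over the tiles were 43.4 to 86.1 in lesioned L-DOPA, 37.4 to 78.2 in lesioned saline and 47.4 to 108 in unlesioned saline libraries. The part of the read distribution in their lower levels was not tested.

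**Figure D3:**
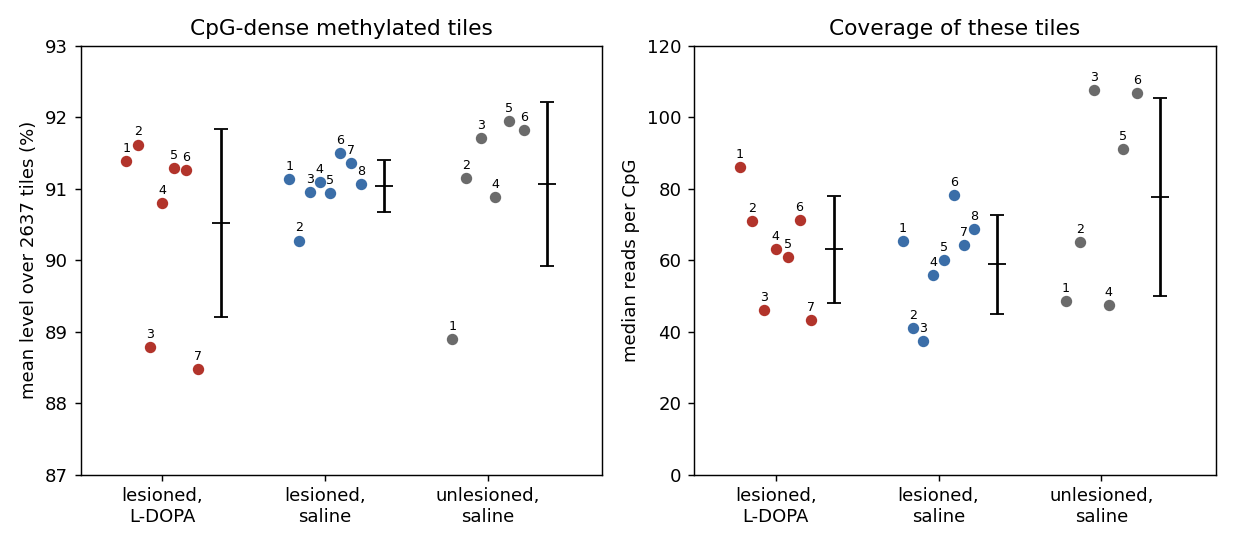
Mean level of the 2637 CpG-dense methylated tiles (left, %, an axis that does not start at 0) and their median reads per CpG (right) in each library, numbered by replicate, with the mean and SD of the group in black. L-DOPA replicates 3 and 7 and unlesioned replicate 1 lie at 88.5% to 88.9%, below the other 18 libraries at 90.3% to 91.9%.

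In single libraries 2213 to 2571 of the tiles were at 80% or above in lesioned L-DOPA, 2395 to 2552 in lesioned saline and 2268 to 2608 in unlesioned saline. At 1838 tiles (69.7%) every one of the 21 libraries was at 80% or above, and at 796 tiles every one was at 90% or above. In the 15 lesioned libraries, whose levels the choice did not use, 1914 tiles (72.6%) were at 80% or above throughout. A level under 50% in at least 1 library was found at 21 tiles, and at 4 when the 3 libraries with concentrated reads were left out.

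The choice of tiles did not use the contrast between L-DOPA and saline within lesioned rats. All 2637 tiles entered a quasi-binomial model fitted to 180855 tiles, with p-values adjusted over all of them by the Benjamini-Hochberg method. It called 0 of the 2637 tiles and 0 of all tested tiles (0%) at an adjusted p under 0.05. A second tool, limma on log2 odds, called 0 as well. By limma 88 of the 2637 tiles had an unadjusted p under 0.05, against 7251 of all 180855 tested. With an unadjusted p under 0.05 in the quasi-binomial model there were 100 tiles, 3.79% of the methylated dense tiles, against 3.83% of all tested tiles. Of these, 64 were lower under L-DOPA (2.43%, against 2.30% of all tested tiles) and 36 higher (1.37%, against 1.53%). The shares are close to those of all tiles and are no result about the methylated dense ones. All 7 L-DOPA libraries lay below all lesioned saline libraries at 0 of the tiles, against 0.0243% of all tested tiles, and above them at 0, against 0.0227%. The logistic model without overdispersion, which treats reads as the only source of spread, called 44 tiles at least 5 points lower (1.67%, against 5.04% of all tested tiles) and 5 at least 5 points higher (0.190%, against 1.27%).

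The size of the differences was small. The mean over the tiles differed by −0.525 points between L-DOPA and lesioned saline (SE 0.513), by −0.389 points among the 9 libraries of the first library run and by −0.754 points among the lesioned libraries of the second. Without the 3 libraries with concentrated reads the difference was 0.230 points, with the sign turned. Per tile the median difference was −0.307 points, against −0.256 points over all tested tiles, and 1646 tiles (62.4%) were lower, against 58.3%. The central 95% of the differences lay between −4.81 and 2.47 points, against −8.66 and 5.30 points over all tiles. The median SE was 1.21 points in the methylated dense tiles and 2.22 points over all tiles.

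**Figure D4:**
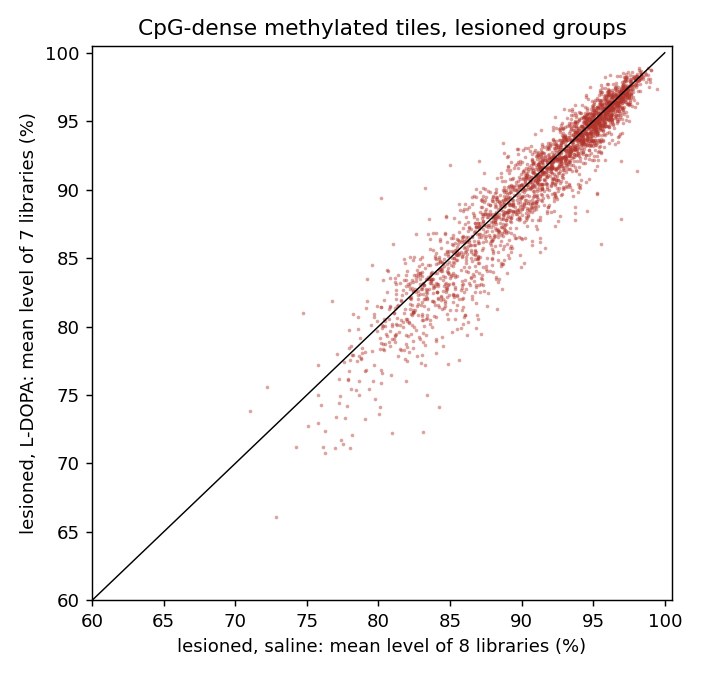
Mean level of each CpG-dense methylated tile in 7 lesioned L-DOPA libraries (vertical, %) against that in 8 lesioned saline libraries (horizontal, %), with the line of equal levels. The points follow the line, with a median difference of −0.307 points, and 0 of the 2637 tiles passed the test.

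The tiles with the smallest p in each direction show what differences of this size look like. At chr2:116492251-116492500, 9 CpGs, the lowest, median and highest level was 84.3%, 89.5% and 98.6% in lesioned L-DOPA and 95.8%, 98.0% and 100% in lesioned saline. The L-DOPA values were mostly lower but overlapped with those of saline, and unlesioned saline averaged 97.9% ± 2.76. Relative to lesioned saline this is −6.69 points (SE 2.20; the quasi-binomial model gave an adjusted p of 1.00), with as few as 24 reads in a library, and −0.833 points when only CpGs listed in all 21 libraries were summed.

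The tile at chr7:12767501-12767750, 15 CpGs and at least 334 reads per library, was better covered. Its lowest, median and highest level was 82.8%, 84.97% and 86.0% in lesioned L-DOPA, 85.7%, 88.1% and 90.4% in lesioned saline and 84.4%, 88.0% and 88.6% in unlesioned saline. The highest L-DOPA library lay just above the lowest lesioned saline library, and the difference was −3.49 points (SE 0.784; the adjusted p was 1.00 in the quasi-binomial model). At chr17:16129751-16130000 the level averaged 92.5% ± 1.49 in lesioned L-DOPA, 95.1% ± 1.33 in lesioned saline and 95.4% ± 1.19 in unlesioned saline, a difference of −2.63 points (SE 0.733). At chr6:131635251-131635500 the difference was −1.83 points (SE 1.59). It was −0.799 points without L-DOPA replicate 6, −2.84 points without L-DOPA replicate 3, −0.0957 points within the first library run and −3.86 points within the second. At chr7:125873251-125873500 the difference was −5.25 points (SE 2.76), which turned to 3.63 points when only CpGs listed in all 21 libraries were summed.

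On the side higher under L-DOPA all 5 tiles lay near 98% and differed by 0.877 to 2.36 points. The tile at chr5:140633001-140633250 averaged 97.7% ± 1.12 in lesioned L-DOPA, 95.6% ± 1.44 in lesioned saline and 97.3% ± 0.795 in unlesioned saline, a difference of 2.11 points (SE 0.661). At chr10:101822001-101822250, with at least 624 reads per library, the averages were 97.7% ± 0.377, 96.4% ± 0.901 and 97.2% ± 0.548 in the same order, a difference of 1.32 points (SE 0.349). The other 3 tiles, at chr8:127378001-127378250, chr13:74215251-74215500 and chr20:14058001-14058250, differed by 2.36, 2.17 and 0.877 points. None of the 10 tiles passed the test of the quasi-binomial model, where the adjusted p was 1.00 for each.

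Levels in lesioned and unlesioned samples are given as a description only, since the unlesioned libraries chose the tiles. The mean over the tiles was −0.551 points in L-DOPA and −0.0259 points in lesioned saline relative to unlesioned saline. Without the 3 libraries with concentrated reads the same differences were −0.230 and −0.461 points. Both lesioned groups together were lower at 1460 tiles (55.4%), against 56.0% of all common tiles. They were at least 10 points lower at 4 tiles and at least 10 points higher at 0. The share of all common tiles past these limits was not counted. The tiles were chosen for a high unlesioned level, which leaves less room for a rise than for a fall, so these counts are no result about the lesion.

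The 3 tiles with the largest decrease were chr12:39242251-39242500, chr5:175415001-175415250 and chr1:116239001-116239250. At chr12:39242251-39242500, 11 CpGs, the lowest, median and highest level was 45.6%, 69.7% and 76.7% in lesioned L-DOPA, 66.7%, 69.7% and 80.2% in lesioned saline and 77.1%, 82.2% and 84.6% in unlesioned saline. The highest L-DOPA library lay just below the lowest unlesioned one, 76.7% against 77.1%, and the lesioned saline libraries overlapped with both groups. The tile was picked for its decrease, and the share of all tiles with such a gap was not counted. The gap is therefore no result about the lesion or L-DOPA. At chr5:175415001-175415250 the averages were 72.3% ± 14.9 in lesioned L-DOPA, 83.1% ± 6.96 in lesioned saline and 89.2% ± 3.02 in unlesioned saline. At chr1:116239001-116239250 they were 71.4% ± 16.8, 77.6% ± 7.26 and 85.2% ± 7.62 in the same order. Without the 3 libraries with concentrated reads the decrease of both lesioned groups was −9.16, −6.35 and −9.39 points at the 3 tiles, against −11.6, −11.1 and −10.6 points with them.

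In the other direction the largest difference was at chr6:20418251-20418500, with 87.6% ± 3.59 in lesioned L-DOPA, 86.2% ± 3.32 in lesioned saline and 80.5% ± 9.90 in unlesioned saline. Unlesioned replicate 4 was at 61.9% there, and without it the unlesioned mean was 84.2% and the lesioned groups were 2.67 points higher, against 6.40 points with it. At chr2:208420251-208420500 the averages were 89.0% ± 3.63, 86.5% ± 5.00 and 82.3% ± 6.08 in the same order. At chr8:104288751-104289000 the lesioned groups were 5.88 points higher, and −0.203 points without the 3 libraries, because unlesioned replicate 1 was at 50.0% there. That library had 40 reads, summed over 2 CpGs (95% Wilson interval 35.2% to 64.8%).

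The spread between libraries was narrower than in CpG-poor methylated tiles and wider than in unmethylated dense tiles. The median SD per tile was 2.47 points in lesioned L-DOPA, 1.98 in lesioned saline and 2.26 in unlesioned saline. Counting error alone gave 1.26, 1.27 and 1.15 points in the same order, with reads taken as independent. Tiles of 2 or 3 CpGs at 80% or above had median SDs of 3.85, 3.35 and 3.51 points, and tiles of 8 or more CpGs between 20% and 80% had 6.77, 5.43 and 6.60 points. Unmethylated dense tiles had 0.630, 0.670 and 0.628 points. After taking off counting error the methylated dense tiles were at 2.06, 1.44 and 1.83 points and the CpG-poor methylated ones at 2.90, 2.08 and 2.54. Methylated tiles of 4 to 7 CpGs lay between these classes, at 2.54, 1.84 and 2.26 points. The unmethylated dense ones were at 0.522, 0.537 and 0.513 points. Their mean level was 2.39% over the 21 libraries, and a level near 0% leaves less room for spread. The part of this in their narrower spread was not tested. Without replicates 3 and 7 the L-DOPA value of the methylated dense tiles before this correction was 1.85 points.

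The 5 tiles with the largest spread over the lesioned libraries differed in how the spread arose. At chr7:16400751-16401000 the lowest, median and highest level was 39.6%, 89.9% and 98.6% in lesioned L-DOPA, 42.02%, 96.0% and 100% in lesioned saline and 49.8%, 95.1% and 99.3% in unlesioned saline. A CpG at position 16400902 with a pooled level of 1.83% and one at 16400913 with 1.68% were listed in 7 libraries, among them the 6 libraries with low levels. In the other one, L-DOPA replicate 6, they read 9.09% and 100%. The CpGs listed in all 21 libraries, at 16400960 and 16400980, were high in each of them, with a lowest summed level of 78.9%, and the SD over the lesioned libraries fell to 6.03 points from these CpGs alone, against 25.3 points from all. The low levels there followed which CpGs were listed.

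At chr7:100116001-100116250 the CpGs were low together. L-DOPA replicate 7 was at 17.7% (95% Wilson interval 13.2% to 23.3%, 220 reads summed over 8 CpGs) and L-DOPA replicate 3 at 47.7%. In unlesioned saline the lowest library was replicate 1 at 35.2% (31.3% to 39.3%, 551 reads summed over 12 CpGs). In lesioned saline it was replicate 2 at 52.1% (47.6% to 56.6%, 472 reads summed over 11 CpGs). The group medians were 88.8% in lesioned L-DOPA, 88.7% in lesioned saline and 89.1% in unlesioned saline. The SD stayed at 20.9 points when only CpGs listed in all 21 libraries were summed. At chr12:43782501-43782750 only L-DOPA replicate 7 was low, at 36.4%, and all other libraries were at 90.5% or above. Its 33 reads were summed over 3 CpGs, each at 36.4% (95% Wilson interval 22.2% to 53.4%). The same reads may be counted at each CpG, so this interval can be too narrow. The remaining tiles, chr12:53266251-53266500 and chr11:33748251-33748500, had SDs of 13.8 and 13.99 points. Their lowest libraries were at 48.4% and 37.1% in lesioned L-DOPA, 50.6% and 72.1% in lesioned saline and 78.6% and 77.8% in unlesioned saline.

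Within a tile most CpGs were methylated alike. Of the 25717 CpGs of these tiles, 16272 (63.3%) were listed in all 21 libraries, and pooled over libraries 91.7% of these were at 80% or above, with a median of 94.1%. The difference between the highest and the lowest CpG of a tile had a median of 9.62 points over 2527 tiles. It was under 10 points at 1303 tiles (51.6%) and over 50 points at 82. Where both strands of a CpG were read in all libraries, at 1980 CpGs, the strands differed by a median of 1.10 points, and by more than 20 points at 33 (1.67%).

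The largest differences came from single CpGs that read as unmethylated inside an otherwise methylated tile. There were 49 such CpGs with a pooled level under 20%, in 48 tiles, while the other CpGs of the tile had a median of 95.2%. Of the 49, 34 were under 20% in every library and 26 were under 1% pooled. The nearest CpG was a median of 7 bp away, and whether the same reads covered both was not tested. At 44 of them only 1 strand was read in the libraries. Leaving such a CpG out raised the tile's level by a median of 8.42 points.

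The 5 tiles with the largest differences between CpGs were all of this kind. At chr12:44468751-44469000 the CpG at position 44468780 read 0.114% over 876 reads, and the others were at 92.5% or above. At chr18:441501-441750 the CpG at position 441515 read 0.898% on the forward and 0.0971% on the reverse strand, from 891 and 1030 reads, and the other 12 CpGs were at 97.7% or above. At chr4:7386251-7386500 the CpG at position 7386376 had 0 methylated of 573 reads, which allows up to 0.524%, with a counting limit of 3 reads. At chr1:276853251-276853500 position 276853389 had 0 of 576 reads and at chr14:27897751-27898000 position 27897867 had 0 of 1260. The group means of these single CpGs were below 1% in lesioned L-DOPA, lesioned saline and unlesioned saline alike. A T in place of the C in the animals' DNA would read like an unmethylated C, and this was not tested.

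**Figure D5:**
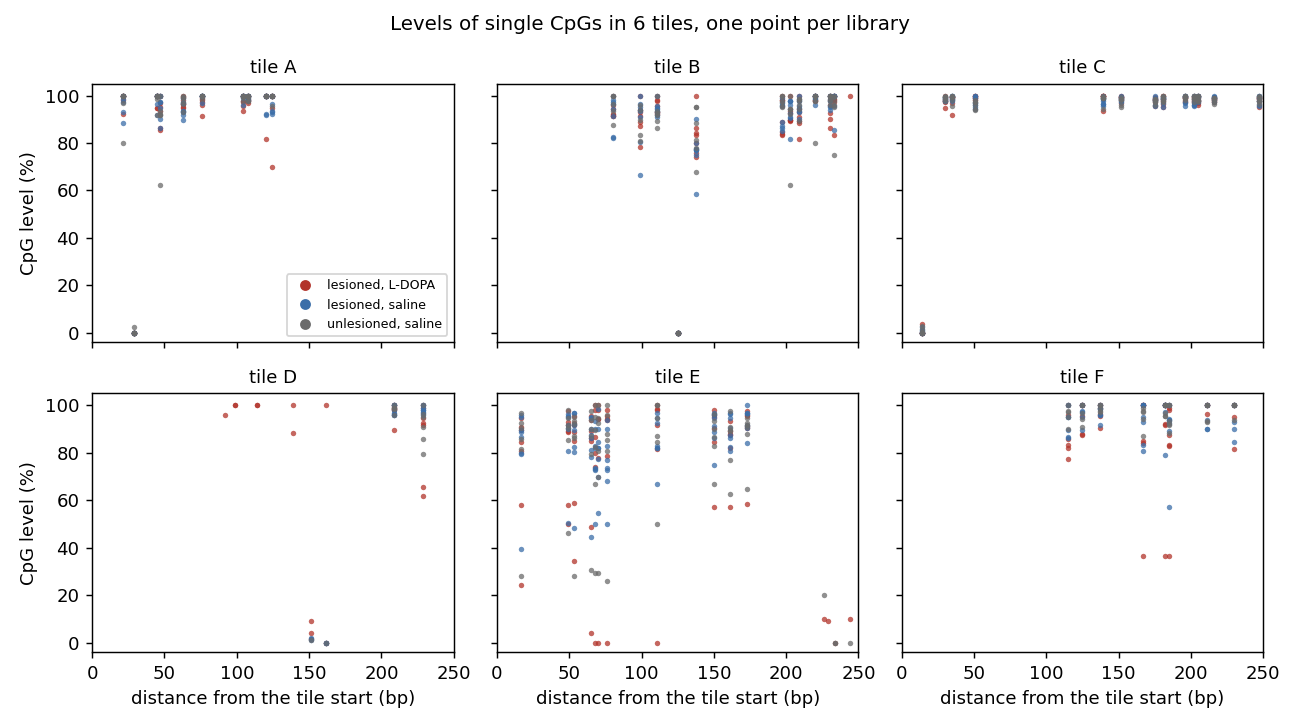
Level of each CpG (vertical, %) against its distance from the start of the tile (bp), 1 point per library and CpG, coloured by group. Tiles A, B and C (chr12:44468751, chr4:7386251, chr18:441501) each hold a CpG near 0% in all libraries among methylated ones; D (chr7:16400751) holds a pair of CpGs that only 7 libraries list, both near 0% in 6 of these, and in E (chr7:100116001) and F (chr12:43782501) several CpGs are low together in few libraries.

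Other CpGs differed between libraries instead. At 75 CpGs in 66 tiles 1 library was under 20% and another at 80% or above, and 12 of these had at least 30 reads in every library. At position 116600039 of chromosome 7, 7 libraries were under 20%, 8 between 20% and 80% and 6 at 80% or above. The tile's other CpGs listed in all 21 libraries had a median of 97.6%, and their median within a library was 95.4% or above. At position 39458153 of chromosome 4, with at least 88 reads per library, 6 libraries were under 20%, 13 between and 2 at 80% or above. There the median of the tile's other CpGs within a library stayed at 96.7% or more. At position 75892745 of chromosome 10 the counts were 17, 2 and 2. Whether such CpGs carry a variant base in some animals was not tested.

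Coverage differed widely among the tiles. The median over tiles was 66.1 reads per CpG and library, and 21 tiles had over 300. The best covered tile, chr2:211293001-211293250, had 2059 reads per CpG and averaged 93.9% ± 0.514 in lesioned L-DOPA, 94.3% ± 0.354 in lesioned saline and 93.9% ± 0.943 in unlesioned saline. Its near neighbour chr2:211292001-211292250 had 1245 reads per CpG, and chr1:32415251-32415500 had 869. Reads from several copies of a sequence may be stacked at such tiles, and this was not tested. The least covered tiles were chr18:51493501-51493750 with 15.7, chr1:75978251-75978500 with 16.9 and chr20:7879001-7879250 with 17.3 reads per CpG, and at chr1:75978251-75978500 the SDs were 12.2 points in lesioned L-DOPA, 9.47 in lesioned saline and 8.48 in unlesioned saline.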

How the data were processed

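Bisulfite libraries of dorsal striatum were sequenced as single-end reads of 50 bases, per the labels' protocols. Reads were mapped to rn5; per the submitters' processing notes, the tools were methylKit 0.9.2, SAMtools 0.1.19, Bismark 0.13.0, Trim Galore 0.3.7 and FastQC 0.10.1. The authors' files give, for each cytosine of a CpG, its coverage (a read count), its strand, and which percent of the reads show C or T, as deposited. Each listed cytosine had at least 10 reads. Per the design text the authors removed duplicate reads, yet over 50 reads lay on 36.4% to 58.8% of a library's cytosines, so PCR duplicates may be counted, and intervals and limits cover counting error only. Libraries listed 1134000 to 1494388 cytosines, with a median coverage of 37 to 70 reads and a total coverage of 5.96e+07 to 1.64e+08 reads, where 1 read counts at each CpG it covers.

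Methylated counts were recovered from the percent and the coverage, both strands of a CpG were joined, and counts were summed over CpGs per tile of 250 bp. A read that covers several CpGs of a tile is therefore counted at each of them. Wilson intervals of tiles take these counts as independent and can be too narrow. The contrast of L-DOPA with lesioned saline was tested with a quasi-binomial logistic model over all 21 libraries in 3 groups, whose dispersion, never under 1, was moderated across tiles as in limma's squeezeVar. Its F-test was adjusted by Benjamini-Hochberg over the 180855 tiles with 2 or more CpGs in at least 5 libraries of each group and a pooled level of 1% to 99%. The model was tested on simulated data. Differences are percentage points between unweighted group means. Alternatives were other coverage limits and scaling, library runs, leaving out libraries, a replicate block, no overdispersion, limma on log2 odds, and other thresholds of the choice. Library runs are the stretches of library numbers in the deposited names, 9 libraries in the first and 12, all unlesioned ones included, in the second, with no label that explains them.

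The tiles and lists were chosen with earlier results of these data known. Tiles named are the longest runs, those with the most CpGs, the smallest p per direction, the largest spread, the largest difference between CpGs, the largest difference of the lesioned groups, those at the thresholds and those with the most and fewest reads; single CpGs and promoters were chosen after their values were seen. A promoter was placed where at least 8 CpGs matched and at least 80% of the CpGs in its window were shared, a method chosen after the files were seen. Python 3.11.15, numpy 2.4.6, pandas 2.3.3, scipy 1.17.1, R 4.3.3 and limma 3.58.1 were used.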

Additional observations from a re-analysis of the deposited data

Results flagged for a closer look

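Among 192 sets of values of 1 group, 31 held a library far from the rest by Dixon's criterion. The criterion marks about 1 in 20 sets by chance, but many of these tiles were chosen for a large spread or difference, so the count is not set against that share. In the mean over all methylated dense tiles, lesioned saline replicate 2 stood apart at 90.28% and unlesioned replicate 1 at 88.89%. Unlesioned replicate 1 was also low at chr7:12767501-12767750 with 84.42%, at chr13:74215251-74215500 with 89.8%, at chr7:100116001-100116250 with 35.21%, at chr1:116239001-116239250 with 70.71%, at chr8:104288751-104289000 with 50% and at chr1:6113001-6113250 with 88.43%.

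L-DOPA replicate 7 was low at chr5:175157501-175157750 with 88.98%, at chr6:145759751-145760000 with 88.67%, at chr16:8599751-8600000 with 90.91%, at chr12:43782501-43782750 with 36.36% and at chr19:52856751-52857000 with 59.09%. L-DOPA replicate 3 was low at chr2:48848751-48849000 with 92%, at chr2:48849001-48849250 with 52.87%, at chr11:33748251-33748500 with 37.14% and at chr2:211292001-211292250 with 93.2%. These replicates and unlesioned replicate 1 are the libraries with concentrated reads. L-DOPA replicate 2 was low at chr16:8600251-8600500 with 92.55% and at chr1:32415251-32415500 with 92.64%.

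In the lesioned saline group, replicate 2 was low at chr5:175157501-175157750 with 87.65% and at chr7:100116001-100116250 with 52.12%, and replicate 3 at chr2:48848751-48849000 with 94.28% and at chr16:8599501-8599750 with 81.59%. In the unlesioned group, replicate 4 was low at chr1:154724501-154724750 with 92.74%, at chr6:145759251-145759500 with 79.01%, at chr6:20418251-20418500 with 61.86%, at chr1:5264001-5264250 with 83.8% and at chr18:51493501-51493750 with 70%, and high at chr12:43782501-43782750 with 100%. Unlesioned replicate 6 was low at chr7:16400751-16401000 with 49.84% and high at chr1:32415251-32415500 with 95.77%.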

How the results depend on the processing

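The absence of calls between L-DOPA and lesioned saline held among the methylated dense tiles in all but 1 of 34 alternatives. The logistic model without overdispersion, with at least 5 points of difference, called 49 tiles, 44 lower under L-DOPA (1.67%) and 5 higher (0.190%). Of all tested tiles it called 5.04% and 1.27% in these directions, 11406 in total. Both an unadjusted p under 0.05 in this model and at least 5 points were found at 54 methylated dense tiles, against 15920 of all 180855 tested. Within the first library run 1 of all tested tiles passed, and it was none of the methylated dense ones. Leaving out each replicate in turn gave 0 to 0 calls among them and 0 to 0 over all tiles, and a mean difference of −0.708 to −0.185 points. It left 82 to 120 methylated dense tiles with an unadjusted p under 0.05, against 5930 to 8525 of the 161840 to 180127 tiles tested. Without the 3 libraries with concentrated reads 108 of 2636 tiles had an unadjusted p under 0.05, against 7173 of all 164976 tested. Of the 108, 46 were lower and 62 higher, and the mean difference was 0.230 points. The directions over all tiles were not counted in this setting, so these counts are no result about the methylated dense tiles. With the replicate number as a block, 94 tiles had an unadjusted p under 0.05, against 6144 of all 180855 tested. In that setting 0 passed, and the mean difference was −0.522 points. The deviations of same-numbered samples correlated at −0.168 to 0.181 over 7 pairs, so the numbers were not taken to pair samples. At the 10 named tiles 328 of 329 alternatives kept the direction, and chr7:125873251-125873500 turned to 3.63 points with CpGs listed in all 21 libraries (this setting was added after seeing the data). The count is no measure of stability, since the tiles were picked by p from these same libraries. Alternatives that change only the model or leave out an unlesioned library cannot move a difference between the 2 lesioned group means. Leaving out 1 library at the 6 tiles named for the lesioned groups, also added after seeing the data, moved the difference by over 1.5 times at chr6:20418251-20418500 (2.67 points without unlesioned replicate 4) and chr8:104288751-104289000 (−1.02 points without unlesioned replicate 1).

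The number of tiles followed the thresholds of the choice: 7249 with 6 or more CpGs, 1018 with 10 or more, 415 with 12 or more, 1662 at a level of 90% or above and 1658 with at least 20 reads per CpG. It was 2671 with the grid of tiles shifted, 2528 from CpGs listed in all 21 libraries and 2669 with a single low CpG left out, both of these settings added after seeing the data. The median SD between lesioned saline libraries was 1.44 points after taking off counting error, against 1.98. Depth limits single libraries at thinly covered tiles, where 33 reads summed over 3 CpGs leave an interval of over 30 points even when counted as independent.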
